A study of Mus musculus with 2 samples.

Results

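De novo lipogenesis is the making of fatty acids from sugar carbon, and its 9 genes examined here cover the enzymes and regulators of that route in mouse liver. They are Srebf1, Mlxipl, Acly, Acaca, Acacb, Fasn, Me1, Thrsp and Pklr. A gene was represented by the array probe set (called a probe here) that is annotated to that gene symbol alone and has the highest mean over both arrays. All 9 genes had such a probe, out of 19938 genes on the array, and all 9 passed a filter on low levels that left 11924 genes. The filter kept mean levels of at least 5.44 (log2), the 40th percentile over probes with 1 symbol.

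Liver RNA came from a pool labelled FHL2-/-, a knockout of the LIM-domain cofactor FHL2, and from a wild-type pool. Both pools combined left-lobe liver RNA of 3 male mice aged 10 to 11 weeks, on a hybrid Black Swiss/129-SV/J background, and each was measured on 1 Affymetrix array. With 1 array per pool there is no replicate and no p-value, and differences between single mice are hidden in the pools but can still add to every difference between them. The comparison asks which transcripts of liver differ when FHL2 is lacking. All levels below are RMA values on the log2 scale, and a difference is the FHL2-/- value minus the wild-type value.

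The route starts in glycolysis, where pyruvate kinase yields the pyruvate that mitochondria turn into citrate. Citrate exported to the cytosol is cut to acetyl-CoA, acetyl-CoA carboxylase makes malonyl-CoA, and fatty acid synthase builds palmitate from both with NADPH as reductant. In liver the genes are switched on after a carbohydrate meal, by insulin through the sterol regulatory element binding protein SREBP-1c and by glucose metabolites through the carbohydrate response element binding protein ChREBP.

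The 9 genes did not all differ in the same direction. Thrsp, Pklr, Acacb and Acly were higher in the FHL2-/- pool by 0.20 to 0.39, while Fasn, Acaca, Me1 and the regulator genes Srebf1 and Mlxipl lay between -0.13 and -0.02. Above 0 were 4 of the 9 genes, against 59.5% of all genes past the filter, and below 0 were 5 of the 9, against 40.4%. The median over the 9 genes was -0.02, against 0.04 over all genes. The 5th and 95th percentiles of all genes were -0.29 and 0.32, and of the 9 genes only Thrsp lay outside them. At 1.5-fold 0 of the 9 genes were higher and 0 lower, against 0.621% and 0.335% of all genes. At 1.2-fold 1 of the 9 genes, Thrsp, was higher and 0 were lower, against 8.66% and 6.16% of all genes. A share of 1 in 9 is close to that background. Pklr and Acacb, both at 0.26, lay just short of the 1.2-fold line at 0.263.

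**Figure D1:**
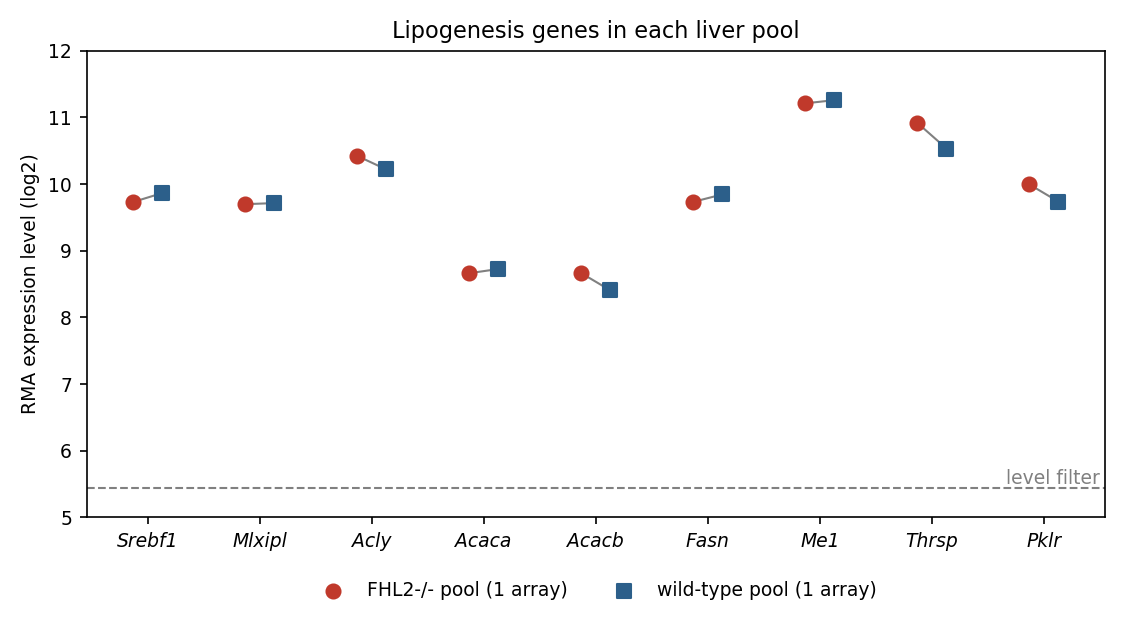
RMA level (log2, vertical axis) of the 9 lipogenesis genes (horizontal axis) in the FHL2-/- pool (red circles) and the wild-type pool (blue squares), 1 array each, joined by a line per gene. Thrsp, Pklr, Acacb and Acly are higher in the FHL2-/- pool, and all values lie above the level filter at 5.44 (dashed line). Different genes have different probes, so their heights are not to be compared.

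The promoters of the 4 higher genes are shown with that of Fasn, whose difference had the other sign, because SREBP-1c and ChREBP act on such sequences. Each is 300 bases of the RefSeq sequence in build GRCm38.p6, from 250 before to 50 after an annotated transcript start, written 5′ to 3′ along the gene's strand. All 9 genes had an entry in the table, with 14 annotated starts among them. Capitals mark matches, on either strand, to a carbohydrate response element (CANGNG, then any 5 bases, then CNCNTG), a sterol regulatory element (TCACNCCAC), an E-box (CACGTG) or a CCAAT box (CCAAT), and of the matches shown only a pair of CCAAT boxes in Fasn overlap. Thrsp is on the minus strand at chr7:97417501-97417800. Pklr is on the plus strand at chr3:89136373-89136672, which is the more downstream of its 2 annotated starts. Acacb is on the plus strand at chr5:114165268-114165567, a start 19197 bases inside the annotated gene. Acly is on the minus strand at chr11:100527951-100528250, and Fasn on the minus strand at chr11:120824498-120824797, a start 619 bases inside its annotated gene.
Thrsp: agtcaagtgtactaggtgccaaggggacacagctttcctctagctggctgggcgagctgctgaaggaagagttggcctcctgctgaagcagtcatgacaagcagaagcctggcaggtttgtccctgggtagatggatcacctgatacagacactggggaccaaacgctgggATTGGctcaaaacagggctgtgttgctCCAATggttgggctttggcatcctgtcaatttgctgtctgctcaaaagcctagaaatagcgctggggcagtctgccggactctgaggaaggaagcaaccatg
Pklr: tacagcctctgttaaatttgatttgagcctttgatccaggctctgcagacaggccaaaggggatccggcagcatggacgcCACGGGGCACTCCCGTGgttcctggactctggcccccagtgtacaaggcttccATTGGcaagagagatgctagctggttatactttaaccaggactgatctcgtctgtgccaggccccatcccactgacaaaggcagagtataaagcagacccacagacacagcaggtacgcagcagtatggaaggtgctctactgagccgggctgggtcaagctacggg
Acacb: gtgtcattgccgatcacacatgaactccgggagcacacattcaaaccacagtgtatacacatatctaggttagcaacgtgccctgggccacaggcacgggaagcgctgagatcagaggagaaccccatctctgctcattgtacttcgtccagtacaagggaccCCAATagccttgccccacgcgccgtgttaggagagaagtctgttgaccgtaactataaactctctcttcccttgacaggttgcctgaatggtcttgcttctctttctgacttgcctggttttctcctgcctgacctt
Acly: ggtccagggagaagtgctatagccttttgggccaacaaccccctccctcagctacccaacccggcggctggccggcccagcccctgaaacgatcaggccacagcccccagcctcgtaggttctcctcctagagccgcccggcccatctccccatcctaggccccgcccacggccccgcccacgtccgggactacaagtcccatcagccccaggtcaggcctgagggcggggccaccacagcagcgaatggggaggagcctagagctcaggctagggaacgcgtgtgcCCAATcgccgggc
Fasn: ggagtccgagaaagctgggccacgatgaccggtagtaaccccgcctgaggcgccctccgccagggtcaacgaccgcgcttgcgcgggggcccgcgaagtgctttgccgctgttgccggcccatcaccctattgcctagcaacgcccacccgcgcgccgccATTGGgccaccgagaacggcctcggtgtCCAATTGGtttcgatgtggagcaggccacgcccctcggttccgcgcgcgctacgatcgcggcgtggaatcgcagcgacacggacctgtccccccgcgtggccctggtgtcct

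The carbohydrate response element, the ChREBP motif, matched in 1 of the 14 windows, that of Pklr, where its first base lies 170 bases before the start. Of 32851 windows of this length for all genes, 0.557% hold that motif. The sterol regulatory element matched 1 of the 14 windows, at the downstream start of Mlxipl (1.24% of all windows), and the E-box matched 1, at the upstream start of Mlxipl (7.15% of all windows). The CCAAT box, bound by NF-Y, matched 9 of the 14 windows in 8 of the 9 genes, against 37.4% of all windows, with 2 matches in Thrsp, 3 in Fasn and 1 each in Pklr, Acacb and Acly. Both genes that were higher and genes that were not therefore hold it. For the count of genes no share of all genes was computed, and a gene with several windows has more chances to match. Acaca, the gene without a match, has its window 65803 bases inside the annotated gene. The GC box (GGGCGG), also searched but not marked in the sequences, matched 5 of the 14 windows, against 35.7% of all windows. A match describes letters in the window and is not a binding site, and these arrays did not measure binding. Nor does the lack of a match show the lack of a site. Sites spelled otherwise, or lying outside these short windows, could not match.

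Among the regulators, Srebf1 encodes SREBP-1, the insulin-responsive activator of lipogenic genes, and was at 9.73 in the FHL2-/- pool and 9.86 in the wild-type pool. The difference of -0.13 had the lowest value of the 9 genes. The SD of the difference between probes of 1 gene was 0.143 over 660 genes with several probes past the filter. Srebf1 lay within it as reported but outside it, at -0.18, after lowess removed the trend of the differences on level. It measures error between probes, not between mice or hybridisations. Mlxipl, which encodes ChREBP, was at 9.70 in the FHL2-/- pool and 9.71 in the wild-type pool, a difference of -0.02 that turned to 0.02 once the arrays were set to the same median. Both genes have several transcript starts, and the table does not say which transcripts a probe reads.

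Thrsp, or Spot 14, is a small protein of lipogenic tissues that responds to thyroid hormone and carbohydrate and promotes fatty acid synthesis. It was at 10.92 in the FHL2-/- pool and 10.53 in the wild-type pool, a difference of 0.39 or 1.31-fold. That is 2.69 times the SD between probes. Of all genes past the filter, 2.68% had a higher difference, and of the 457 genes within 0.5 of its mean level, 1.53% did. Its paralog Mid1ip1, which promotes polymerisation of acetyl-CoA carboxylase, was at 8.92 in the FHL2-/- pool and 9.12 in the wild-type pool by its brighter probe, a difference of -0.20. The dimmer probe of Mid1ip1 gave 0.20, so the direction of that paralog depends on the probe.

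Pklr encodes the pyruvate kinase of liver and red cells, which makes pyruvate in the last step of glycolysis. It was at 9.99 in the FHL2-/- pool and 9.74 in the wild-type pool, a difference of 0.26 that is 1.81 times the SD between probes. Of 869 genes of similar level, 4.03% had a higher difference. Pkm, the pyruvate kinase of muscle and most other tissues, lay on the other side, with 7.95 in the FHL2-/- pool and 8.20 in the wild-type pool, a difference of -0.25. The second probe of Pkm gave -0.17.

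Acly, ATP citrate lyase, cuts exported citrate into acetyl-CoA and oxaloacetate. It was at 10.42 in the FHL2-/- pool and 10.22 in the wild-type pool, a difference of 0.20 that is 1.43 times the SD between probes. Of 589 genes of similar level, 8.15% had a higher difference.

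As reported, the differences of the acetyl-CoA carboxylase genes had opposite signs between these single arrays, but that of Acaca was small. Acacb encodes the carboxylase at the mitochondrial surface, whose malonyl-CoA restrains fatty acid oxidation, and was at 8.66 in the FHL2-/- pool and 8.41 in the wild-type pool. Its difference of 0.26 is 1.81 times the SD between probes, and 6.73% of 1991 genes of similar level had a higher one. Acaca encodes the cytosolic carboxylase that feeds fatty acid synthase and was at 8.66 in the FHL2-/- pool and 8.73 in the wild-type pool, a difference of -0.06. Its other probe was at 7.28 in the FHL2-/- pool and 7.30 in the wild-type pool, a difference of -0.02. Both differences of Acaca lie within the SD between probes of 0.143. The shift of 0.041 between the array medians is larger in size than the second, so the sign of Acaca is not settled. Acacb stood 0.32 above Acaca in difference, or 0.28 with the other probe of Acaca, where the probe SD for a pair of genes is 0.202. A common shift of an array leaves that gap unchanged by arithmetic, so this is no check of it. The pair was chosen after its values were seen, and the probe SD does not cover error between mice or hybridisations.

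Fasn, fatty acid synthase, was at 9.73 in the FHL2-/- pool and 9.84 in the wild-type pool, a difference of -0.11, within the SD between probes, or -0.16 after lowess, outside it. Acly, which acts upstream of it in the route, stood 0.32 above it in difference. Me1, the cytosolic malic enzyme that makes NADPH, was at 11.21 in the FHL2-/- pool and 11.26 in the wild-type pool, a difference of -0.05. Its other probe was at 11.01 in the FHL2-/- pool and 11.02 in the wild-type pool, a difference of -0.0031. Larger than the SD between probes in size were 4 of the 9 genes, against 40.3% of all genes counted in either direction. All 4 were higher in the FHL2-/- pool, and on that side the 75th percentile of all genes, 0.145, is close to the SD. After lowess 6 of the 9 genes exceeded the SD in size, against 37.2% of all genes counted in either direction. Srebf1 and Fasn were added on the lower side, for which no share of all genes was computed.

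**Figure D2:**
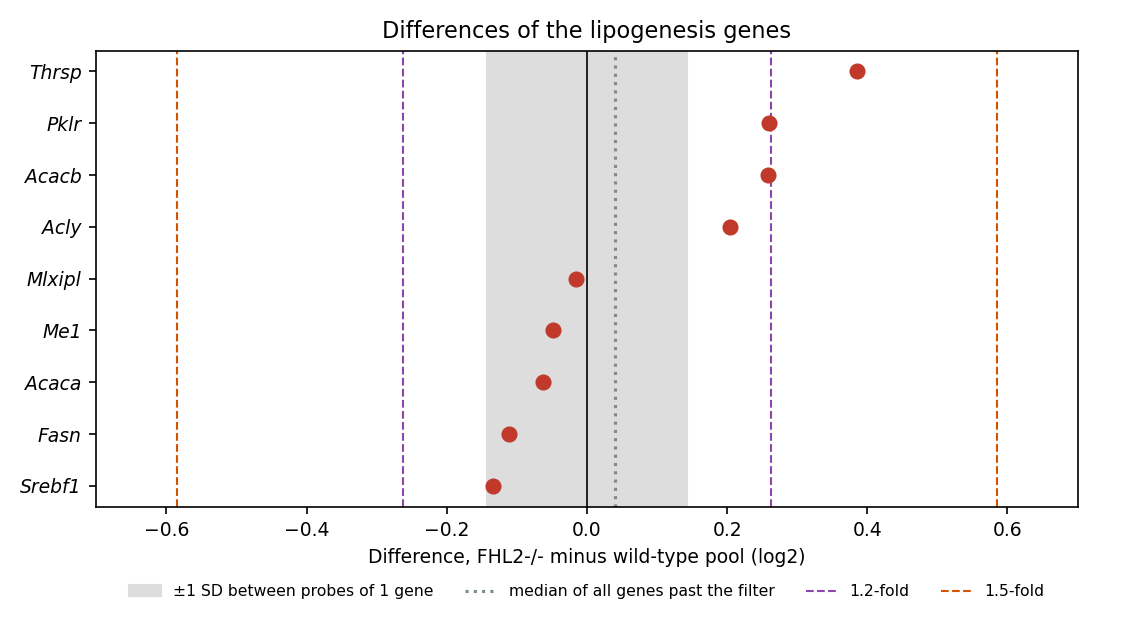
Difference between the FHL2-/- and the wild-type pool (log2, horizontal axis) of the 9 lipogenesis genes, sorted by value, 1 point per gene. The grey band is 1 SD between probes of 1 gene (0.143) on each side of 0, the dotted line is the median of all genes past the filter (0.04), and dashed lines mark 1.2-fold and 1.5-fold. Thrsp at 0.39 is the 1 gene past 1.2-fold, and Srebf1, Fasn, Acaca, Me1 and Mlxipl lie inside the band.

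Probes numbered next to each other on this array mostly belong to genes of 1 chromosome. Of 21698 probes with 1 symbol and a known chromosome, 2.64% had no gene of their own chromosome among the 20 probes nearest in number. The brighter Acaca probe was among these, with 0 of 20 neighbours on chromosome 11, where Acaca lies, and 18 on chromosome 12. The brighter Me1 probe had 1 of 20 on chromosome 9, where Me1 lies, and 17 on chromosome 13. The other probes of Acaca and Me1 had 19 of 20 on the chromosome of their gene. Whether the brighter probes read those genes or similar sequence elsewhere was not tested. Under either probe the differences of Acaca and Me1 lay between -0.06 and -0.0031. Probes of genes outside the 9, such as those of Pkm, were not looked at singly in this way.

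**Figure D3:**
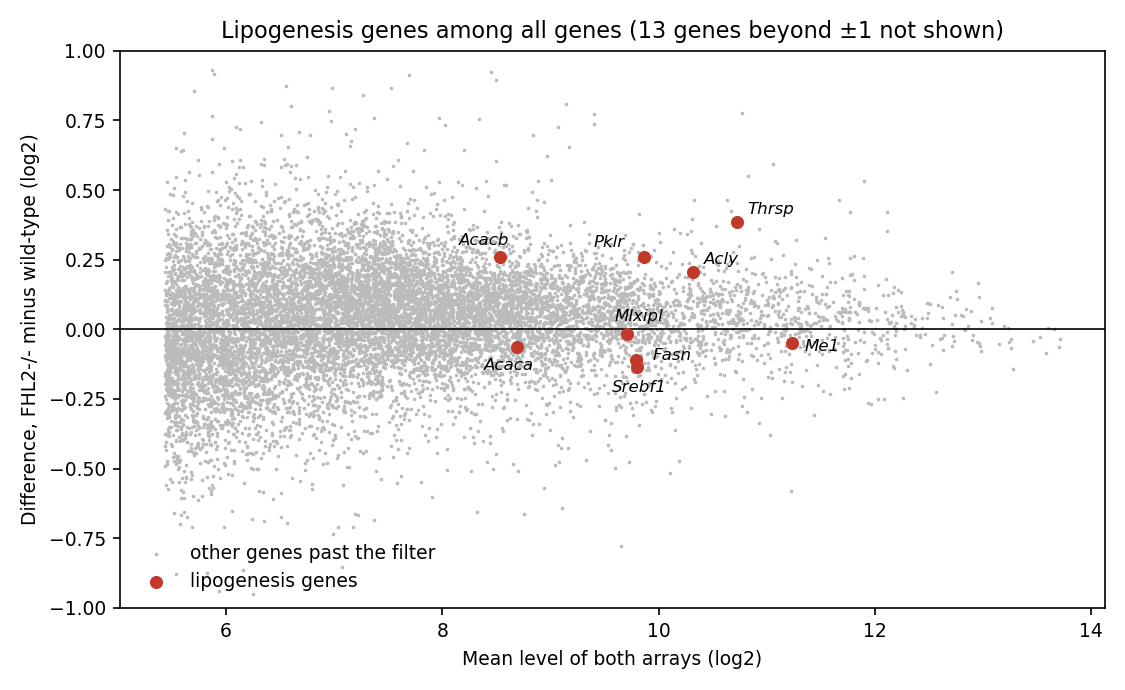
Difference (FHL2-/- minus wild-type, log2, vertical axis) against the mean level of both arrays (log2, horizontal axis) for the 11924 genes past the filter (grey) and the 9 lipogenesis genes (red). The scatter of all genes narrows at high levels, where Thrsp, Pklr and Acly lie toward its upper edge. Beyond the vertical axis lie 13 genes, none of them a lipogenesis gene.

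Related genes were placed beside the 9. Of the list that supplies sugar and pyruvate, 9 of 11 genes past the filter were above 0, against 59.5% of all genes. Its median was 0.12, against 0.04 for all genes. At 1.5-fold 0 of the 11 were higher and 0 lower, against 0.621% and 0.335% of all genes. Slc2a2, the glucose transporter of hepatocytes, was at 11.16 in the FHL2-/- pool and 10.91 in the wild-type pool, a difference of 0.25. Tkfc and Khk, both enzymes of fructose breakdown, were at 0.18 and 0.18 in difference.

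Of the other targets of SREBP-1 and ChREBP, 9 of 13 were above 0, with a median of 0.08, against 59.5% and 0.04 for all genes. At least 1.5-fold higher was 1 of the 13, Elovl6, the elongase that lengthens palmitate, with 8.16 in the FHL2-/- pool and 7.51 in the wild-type pool, and 0 were as much lower, against 0.621% and 0.335% of all genes. The difference of Elovl6 was 0.64, and 0.58 after removal of the trend of the differences on level by lowess, just short of 1.5-fold. Rgs16, a regulator of G protein signalling, had a difference of 0.39, and Pnpla3, a lipid droplet protein, one of -0.36. Acss2, which makes acetyl-CoA from acetate, was at 10.40 in the FHL2-/- pool and 10.16 in the wild-type pool, a difference of 0.24 that is close to that of Acly. Pgd, which makes NADPH in the pentose phosphate pathway, was at 0.13 in difference. Nnt, which makes NADPH in mitochondria, was at 8.66 in the FHL2-/- pool and 9.23 in the wild-type pool, 1.48-fold lower in the FHL2-/- pool. The list of acetyl-CoA and NADPH suppliers had 3 of 5 genes above 0 and a median of 0.03, against 59.5% and 0.04 for all genes.

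Genes that control the regulators were mixed. Insig1, which holds SREBP in the endoplasmic reticulum and is itself an SREBP target, was at 11.96 in the FHL2-/- pool and 12.21 in the wild-type pool, a difference of -0.25. Insig2, a second such anchor, had a difference of 0.19 and Srebf2, the sterol-regulated paralog of Srebf1, one of 0.14. Of the 5 genes of SREBP processing 2 were above 0, with a median of -0.04 that turned to 0.0059 after the common median shift. Of 10 transcription factors and insulin signalling genes upstream of lipogenesis 8 were above 0, with a median of 0.11. The background for both lists is 59.5% of all genes above 0, with a median of 0.04. Usf1, an E-box binding factor at lipogenic promoters, was at 6.67 in the FHL2-/- pool and 6.27 in the wild-type pool, a difference of 0.39. The insulin receptor Insr was at 0.23 in difference by its brighter probe and 0.09 by the other, and its substrate Irs2 at -0.17.

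Of 12 genes that act as brakes on lipogenesis, 11 were above 0, with a median of 0.08, against 59.5% and 0.04 for all genes. Of the 11, Prkab1 (0.01), Trib3 (0.03) and Nr0b2 (0.03) lay below the median of all genes. The 1 gene below 0 was Foxo1, at -0.20. At 1.5-fold 0 were higher and 0 lower, against 0.621% and 0.335% of all genes. Sik1, a kinase of the AMPK family, had a difference of 0.38, Trib1, a pseudokinase that restrains hepatic lipogenesis, one of 0.32, and Prkaa2, a catalytic subunit of AMPK, one of 0.22. Paralogs of the 9 genes had 3 of 6 above 0 and a median of -0.04, against 59.5% and 0.04 for all genes. That median of the paralogs became 0.01 when all probes of a gene were averaged. With 1 array per pool, none of these medians or counts is set apart from that of all genes by a test.

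**Figure D4:**
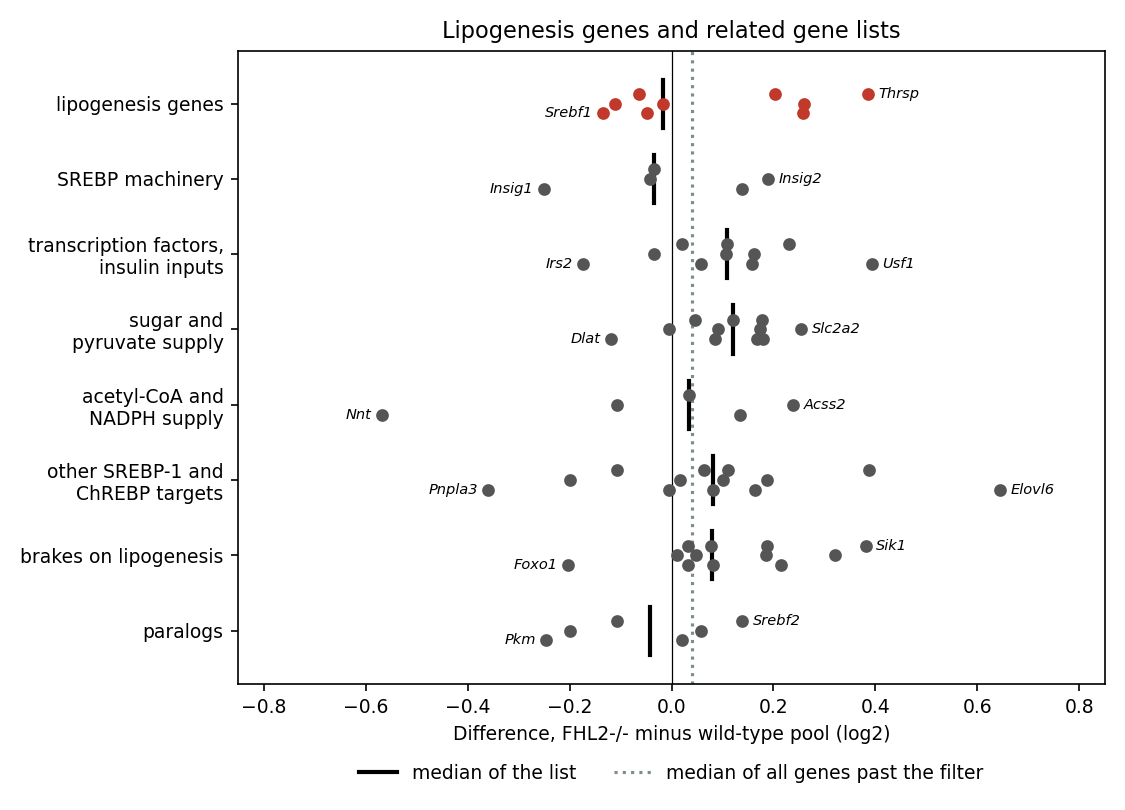
Difference (FHL2-/- minus wild-type, log2, horizontal axis) of each gene past the filter in the lipogenesis genes (red) and 7 related lists (grey), with the list's median as a black bar and the median of all genes as a dotted line. Of the lipogenesis genes, 4 lie at 0.20 to 0.39 and 5 at -0.13 to -0.02, and the lowest and highest gene of each list are named.

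The tissue label was checked with marker genes, and the arrays' own medians were 5.71 for the FHL2-/- pool and 5.76 for the wild-type pool. Hepatocyte markers (7 of 8 measured) lay between 10.83 and 13.67 in the FHL2-/- pool and between 10.68 and 13.74 in the wild-type pool. Fat cells also make lipogenic enzymes. Of 6 measured adipocyte markers 2 passed the filter, the summed level was 7.69 in the FHL2-/- pool and 7.85 in the wild-type pool, and adiponectin (Adipoq), which defines fat cells, was at 3.64 in the FHL2-/- pool and 3.75 in the wild-type pool, below the filter. The 2 that passed were Fabp4, a fatty acid binding protein also made by other cells, at 6.18 in the FHL2-/- pool and 6.50 in the wild-type pool, and the lipid droplet protein Plin1, at 5.46 in the FHL2-/- pool and 5.67 in the wild-type pool. Of 4 skeletal muscle markers 3 passed the filter. The summed level, which includes Myh4 below the filter, was 7.46 in the FHL2-/- pool and 7.64 in the wild-type pool. Of the 3, Ckm (-0.36) and Tnnt3 (-0.39) were at least 1.2-fold lower in the FHL2-/- pool, against 6.16% of all genes. Both lay close to the filter level, and Acta1 had a difference of 0.04. All 5 macrophage markers were below 0, against 40.4% of all genes. Their summed level was 10.29 in the FHL2-/- pool and 10.59 in the wild-type pool, and their part in the differences above was not tested. In whole liver, fewer cells of a type and less RNA per cell cannot be told apart. Fhl2 itself was at 5.33 in the FHL2-/- pool and 5.30 in the wild-type pool, below the filter, and the labels do not say which exons the allele lacks, so its probe checks nothing about the genotype.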

How the data were processed

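Liver RNA of 2 pools was measured on 1 Affymetrix array each. The deposited table holds log2 values per probe, which the authors made with Affymetrix Expression Console 1.0, RMA and Partek 6.4, named in the submitters' processing notes with no order or role. For program settings and the genome build, none is given in the sources used here. RMA usually brings arrays close to 1 distribution and shrinks differences of dim transcripts, so a change in total RNA per cell cannot be read from these values. The array medians still differed by 0.041. There is no detection call, and precision is limited by the number of arrays.

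The platform annotation gave 1 gene symbol to 21789 of 28853 probes, several to 1621 and none to 5443. The Entrez identifiers of 21698 probes with 1 symbol were in the RefSeq gene table (GRCm38.p6), with 0 differing symbols. Of 69 companion genes 9 had no probe of 1 symbol and were not analysed here. The SD between probes was pooled over 1809 probes of 660 genes.

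The members and lists were chosen with earlier results of these data known. The 9 genes are all named, with Fhl2 and, of each companion list, genes past 1.5-fold and the 3 with the largest absolute difference past the filter. Other names (Adipoq, Fabp4, Plin1, Ckm, Tnnt3, Acta1, Myh4, Foxo1, Prkab1, Trib3 and Nr0b2) and the gaps between pairs of genes were chosen after their values were seen. As alternatives, the arrays were set to the same median, the trend on level was removed by lowess (span 0.3, statsmodels 0.14.6), all probes of a gene were averaged, the filter was dropped or set at the 60th percentile, 2-fold replaced 1.5-fold, and lists lost their most extreme gene. The choice and averaging of probes, the trend removal and the fold counts were run on simulated data with 2-fold changes and little scatter. That checks the code only, not how well differences as small as those reported here are found. Python 3.11.15, numpy 2.4.6 and pandas 2.3.3 were used.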

Additional observations from a re-analysis of the deposited data

How the results depend on the processing

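The differences of the 9 genes moved by at most 0.054 under the common median shift, lowess and the mean over probes, less than the SD of 0.143 between probes. Mlxipl turned from -0.02 to 0.02 after the common median shift, as did the median over the 9 genes, of which it is the middle one. Above 0 were then 5 of the 9 genes, against 4 as reported, and the share of all genes was not computed there. The shift of 0.041 also exceeds in size the differences by the other probes of Acaca (-0.02) and Me1 (-0.0031). The split of the 9 genes around 0 thus depends on array offset and probe choice. At 1.2-fold or more higher were 3 of the 9 genes after the common median shift, which added Pklr (0.30) and Acacb (0.30) to Thrsp (0.43), against 1 as reported, while the share of all genes past that line was 12.7%, against 8.66% as reported. After lowess Srebf1 (-0.18) and Fasn (-0.16) lay beyond the SD between probes, so that 6 of the 9 genes did, 4 higher and 2 lower. Of all genes 37.2% did, counted in either direction, and the share on each side after lowess was not computed. After lowess 0 of the other SREBP-1 and ChREBP targets were at least 1.5-fold higher, and 1 of the acetyl-CoA and NADPH suppliers (Nnt) was at least 1.5-fold lower. The median of the acetyl-CoA and NADPH suppliers was -0.04 without the level filter, and that of SREBP processing genes was 0.05 without Insig1. The median of the paralogs was 0.02 without Pkm. Of 207 values recomputed under an alternative, 200 stayed within these limits (the SD between probes for a difference or median, 1.5 times for a count). The 200 do not measure robustness, since many values could not move. Gaps between pairs of genes are unaltered by a common shift or a change of filter. Counts of 0 past 1.5-fold cannot rise at 2-fold, and averaging probes leaves a gene with 1 probe unchanged. A change of sign in a small value was counted as within the limits. The alternatives cover processing only, since 1 array per pool leaves no replicate to omit. No paired analysis was possible because each group holds 1 array.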
